A study of Mus musculus with 15 samples.

Results

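Autosomal gene expression was compared between the pituitary glands of female and male PE-/- mice, which lacked the pituitary enhancer (PE) of Nr5a1 on both chromosomes. The comparison held 7 of the 15 RNA-seq libraries analysed here, 3 from PE-/- females and 4 from PE-/- males, chosen by the genotype and sex in the labels. The other 8 libraries, 4 from females and 4 from males, came from PE+/- mice, which lacked the enhancer on 1 chromosome and were the controls of the study. Every mouse in both contrasts thus carried a deleted copy. The enhancer had been removed with CRISPR/Cas9 from an intron of Nr5a1, a deletion that is not limited to one cell type, and each library was made from RNA of the whole pituitary with a kit for low input. The age of these mice, the stage of the estrous cycle and whether a library came from 1 gland or several are not given in the sources used here. The contrast asked which differences between the sexes are seen in mice whose gonadotropes lack Nr5a1.

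Gonadotropes are the cells of the anterior pituitary that secrete luteinizing hormone and follicle-stimulating hormone when gonadotropin-releasing hormone (GnRH) reaches them from the hypothalamus. Their nuclear receptor NR5A1, also called Ad4BP or SF-1, activates the genes of the hormone subunits and of the GnRH receptor. The gonads respond with steroids and inhibin, which act back on the pituitary. Estrogens are known to raise prolactin, galanin and the progesterone receptor in the rodent gland, and growth hormone and prolactin cells are known to differ between the sexes.

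The 7 PE-/- libraries held 17606866 to 30238443 estimated counts, with 4 counts standing for about 1 sequenced fragment and 12 counts (3 fragments) taken as the floor of detection. Levels are given as CPM, the counts scaled to a common library size. Transcripts of the sex chromosomes, which are not reported, matched the labelled sex in 15 of 15 libraries. Nr5a1 itself was at 0.618, 0.897 and 0.657 CPM in the PE-/- females and at 0.303, 0.345, 0 and 0.740 CPM in the PE-/- males, against 33.7 to 80.2 CPM in the PE+/- libraries. The genes of the pituitary hormones Gh, Prl, Pomc, Tshb and Cga were present in all 7 libraries. Some PE-/- male libraries stood apart from the others. Replicate 4 held the most Prl and the least Lhb, Fshb and Cga of the PE-/- libraries. Replicate 1 held 4644 CPM of Pomc, against 42119 to 115020 CPM in the other PE-/- libraries. Replicates 3 and 4 were high in genes of the posterior lobe, for example Scn7a at 48.6 and 24.2 CPM against 2.36 to 4.14 CPM in the other PE-/- libraries. Several of the genes named below for high or low levels in male 4, or in males 3 and 4, are also given without those libraries. The glands were bulk samples, so fewer cells of a type and less RNA per cell cannot be told apart.

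Few autosomal genes passed the threshold between the PE-/- sexes, which does not show that the others were equal. Of 17568 autosomal genes tested, 3 passed an adjusted p of 0.05 in the quasi-likelihood test of edgeR (0.0171%): B3gnt2 was higher in females (0.00569%), and Arfgap3 and 1810043G02Rik were higher in males (0.0114%). At an unadjusted p under 0.05 there were 585 genes (3.33%), of which 285 were higher in females (1.62%) and 300 in males (1.71%), and in 907 genes (5.16%) the CPM of the sexes did not overlap. The same contrast in PE+/- mice passed 100 of 16548 genes (0.604%), 63 higher in females (0.381%) and 37 higher in males (0.224%). It had 2208 genes at an unadjusted p under 0.05 (13.3%), 1184 higher in females (7.15%) and 1024 in males (6.19%), and 1601 genes whose sexes did not overlap (9.67%). With fewer libraries in PE-/-, groups without a difference fail to overlap more often there. The shares without overlap are thus not on one scale. An absolute log2 fold change over 1 was fitted to 822 genes (4.68%) in PE-/- and to 1529 genes (9.24%) in PE+/-.

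The precision of both contrasts was alike. The 95% interval of the log2 fold change reached a median of 0.608 to each side in PE-/- and 0.655 in PE+/-, and the whole interval lay between -1 and 1 for 10329 genes (58.8%) in PE-/- and 8332 genes (50.4%) in PE+/-. The PE-/- contrast had 1 female library fewer. When 1 PE+/- female was left out, so that 3 females stood against 4 males as in PE-/-, the PE+/- count was 98, 35, 30 or 28 genes. The PE-/- count was 31 with DESeq2, 20, 10 or 14 with female 1, 2 or 3 left out, 3 to 6 with 1 male left out, 0 in one fit of all 15 libraries and 10 with males 3 and 4 both left out. Across libraries, the Pearson correlation of log2 CPM was 0.919 to 0.933 between PE-/- libraries of the same sex (median 0.922, 9 pairs) and 0.913 to 0.938 between the sexes (median 0.923, 12 pairs). On the first principal component of all libraries (14.3% of the variance), the PE-/- females had scores of 26.2 to 37.5 and the PE-/- males of 22.9 to 41.7, overlapping each other. The PE+/- males had scores of 2.85 to 19.2, and the PE+/- females of -92.8 to -50.0.

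The 100 genes that differed between the PE+/- sexes were followed into the PE-/- mice, whose libraries had no part in choosing them. Of the 100, 92 were tested in PE-/-, 0 passed in edgeR, and 1 had an unadjusted p under 0.05 in the same direction. Over all autosomal genes tested in PE-/-, 0.0171% passed and 3.33% had an unadjusted p under 0.05 in either direction. With so few passing, 0 would be usual for any set of this size, and that count alone does not show that the differences were lost. Of the 92 genes, 35 kept the direction they had in PE+/-, against 47.3% of the 16339 autosomal genes tested in both genotypes. The 63 genes higher in PE+/- females had a median log2 fold change of 1.76 there. The 56 of them tested in PE-/- had a median of -0.06, and the interval lay between -1 and 1 for 32. The 37 genes higher in PE+/- males had a median of -1.40 there. The 36 of them tested in PE-/- had a median of 0.11, with the interval between -1 and 1 for 21. Genes chosen for a difference in 1 set of libraries tend to be nearer to 0 in another. With DESeq2, 852 genes passed in PE+/-, 821 of them were tested in PE-/- and 0 passed there, out of 31 genes that DESeq2 called in PE-/- and 640 that it put at an unadjusted p under 0.05. In the other direction, none of the 3 genes that passed in PE-/- passed in PE+/- by edgeR, where 0 of the 3 had an unadjusted p under 0.05.

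**Figure D1:**
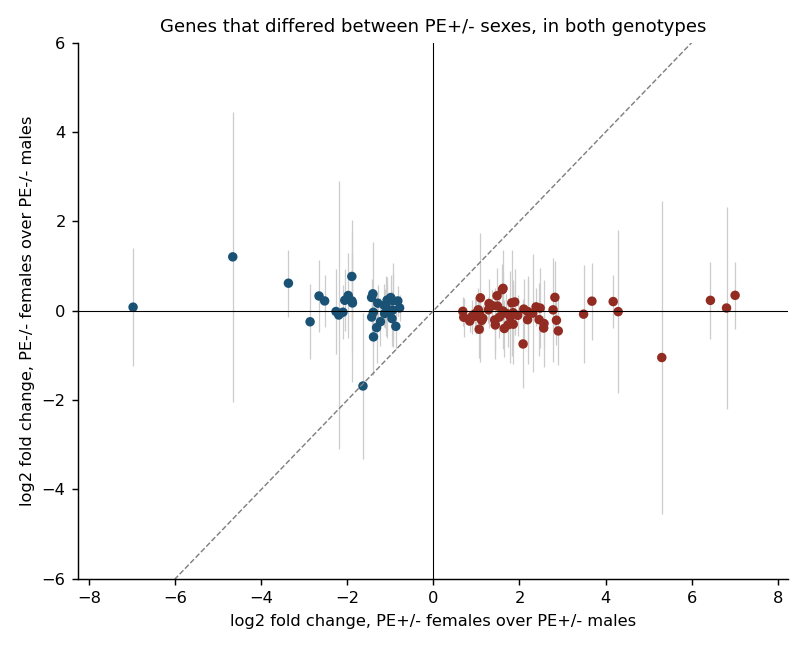
Log2 fold change of females over males in PE+/- (x axis) and PE-/- mice (y axis) for the 92 genes that passed the threshold in PE+/- and were tested in PE-/-. Red points were higher in PE+/- females and blue points in PE+/- males, grey bars are 95% intervals of the PE-/- value and the dashed line marks equal values; most points lie along the horizontal line at 0.

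Of the 2208 genes at an unadjusted p under 0.05 in PE+/- by edgeR, 2158 were tested in PE-/-. There 46 had an unadjusted p under 0.05 in the same direction and 35 in the opposite one. The share of all autosomal genes tested in PE-/- was 3.33% in either direction, 1.62% higher in females and 1.71% higher in males. At any p, 919 of the 2158 genes (42.6%) kept their PE+/- direction, against 47.3% of the genes tested in both genotypes. Among the 100 genes that passed in PE+/-, 1 had an unadjusted p under 0.05 in PE-/-. That gene was 9430064I24Rik, a transcript of chromosome 7 that the annotation lists as to be experimentally checked. It was at 2.41, 2.63 and 1.01 CPM in the PE-/- females and at 3.49, 1.80, 9.04 and 11.8 CPM in the PE-/- males, a log2 fold change of -1.68 (SE 0.69) beside -1.64 (SE 0.23) in PE+/-. Males 3 and 4 were the high ones, and the sexes overlapped. Without both males the PE-/- log2 fold change of 9430064I24Rik was -0.38 (unadjusted p = 0.51 in edgeR), a setting added after seeing the data.

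The levels of the 92 genes tested in both genotypes were, in each PE-/- library, placed between the PE+/- sexes, on a log2 scale that sets the PE+/- male mean at 0 and the PE+/- female mean at 1. For the 56 genes higher in PE+/- females, the median position was 0.0574, 0.0759 and 0.0373 in the PE-/- females and 0.0485, 0.0775, 0.0781 and 0.153 in the PE-/- males. By this median all 7 libraries, female ones included, were nearer to the level of PE+/- males, and the PE-/- sexes overlapped. The 8 genes not tested in PE-/- were left out, since they had passed the filter on low counts only through the PE+/- libraries. For the 36 genes higher in PE+/- males, the median position was 0.114, 0.495 and 0.371 in the PE-/- females and 0.223, 0.459, 0.456 and 0.286 in the PE-/- males. These lay between the PE+/- sexes, with the PE-/- sexes overlapping.

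**Figure D2:**
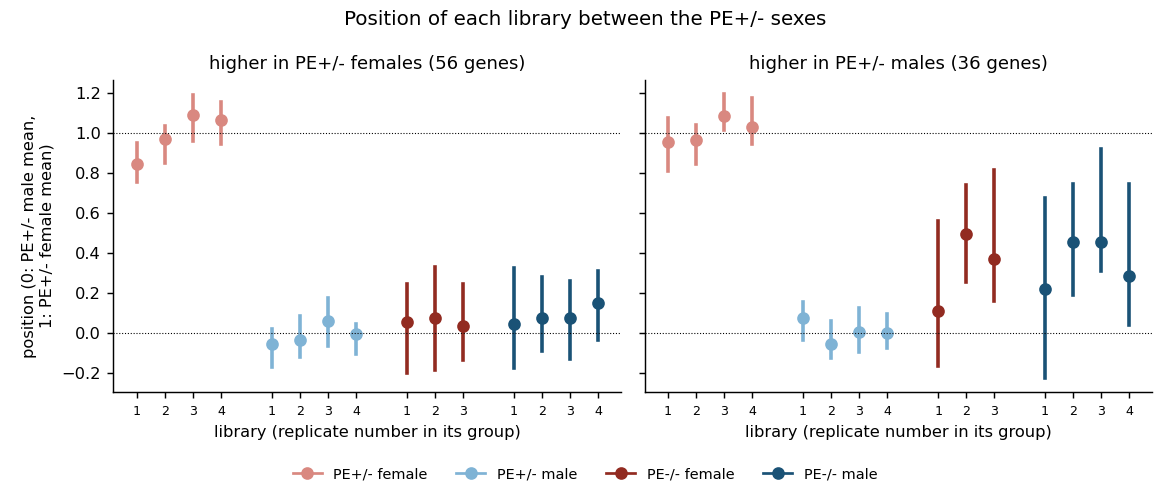
Median position (point) and quartiles (bar) of each library between the PE+/- male mean (0) and the PE+/- female mean (1), for the 56 genes higher in PE+/- females (left) and the 36 higher in PE+/- males (right) that were tested in both genotypes. In the left panel the PE-/- libraries of both sexes lie from 0.0373 to 0.153; in the right panel they lie from 0.114 to 0.495.

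Among the genes that were higher in PE+/- males, Ramp1 had the smallest adjusted p. It encodes a subunit of the receptor for calcitonin gene-related peptide and lies at 91179822 to 91225196 on the plus strand of chromosome 1 (mm10). It was at 51.2, 39.8, 52.0 and 42.5 CPM in the PE+/- males and at a mean of 8.02 ± 1.61 CPM (SD, n = 4) in the PE+/- females. In the PE-/- mice it was at 8.03, 14.1 and 8.32 CPM in females and at 7.03, 9.96, 9.32 and 8.71 CPM in males. The PE-/- sexes overlapped, and both were near the low level of the PE+/- females. The log2 fold change was 0.22 (95% interval -0.36 to 0.80) in PE-/- and -2.53 (SE 0.19, edgeR adjusted p = 0.00333) in PE+/-.

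The other 5 named genes higher in PE+/- males did not pass in PE-/-. Megf10, a receptor for the engulfment of cell debris, was at 3.77, 4.80 and 5.47 CPM in the PE-/- females and at 6.02, 3.37, 2.25 and 3.30 CPM in the PE-/- males, between the PE+/- means of 2.02 CPM in females and 12.8 CPM in males. Nmnat2, an enzyme of NAD synthesis in neurons, was at 73.1, 55.4 and 66.6 CPM in females and 85.0, 84.4, 67.9 and 49.9 CPM in males, also between the PE+/- means of 42.5 and 115 CPM. Nptx1, a neuronal pentraxin, was at 13.6 to 31.5 CPM in the PE-/- females and 12.3 to 36.1 CPM in the PE-/- males, near its PE+/- male mean of 24.5 CPM and above its PE+/- female mean of 5.07 CPM. For 1500009L16Rik the PE-/- means were 8.41 ± 1.55 CPM (SD, n = 3) in females and 8.61 ± 2.52 CPM (n = 4) in males. Pias3, an inhibitor of STAT3, was high in 1 library of each PE-/- sex, at 42.4 CPM in female 3 and 37.6 CPM in male 2, against 7.54 to 11.7 CPM in the other 5. The log2 fold changes of these 5 genes ran from -0.14 to 0.33 in PE-/- and from -2.66 to -1.43 in PE+/-.

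Of the genes higher in PE+/- females, Crhbp was at or under the floor in both PE-/- sexes. It encodes the binding protein of corticotropin-releasing hormone. It was at 328, 161, 471 and 315 CPM in the PE+/- females, at 0 counts in the 4 PE+/- males, and at no more than 9 counts in any of the 7 PE-/- libraries. It was therefore not tested in PE-/-, and no fold change is given.

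Cd63 and Mfge8 were abundant enough for a narrow interval. Cd63, a tetraspanin of late endosomes, was at 329, 388, 345 and 374 CPM in the PE+/- females and 157, 173, 184 and 147 CPM in the PE+/- males. In PE-/- mice it was at 140, 141 and 143 CPM in females and at 136, 168, 176 and 179 CPM in males. The PE-/- libraries lay near the PE+/- males, and the log2 fold change was -0.22 (interval -0.51 to 0.07) against 1.12 (SE 0.12, edgeR adjusted p = 0.00773) in PE+/-. Mfge8, a secreted protein that tags dying cells for uptake, was at 196, 103 and 124 CPM in the PE-/- females and at 140, 107, 113 and 143 CPM in the PE-/- males. Its log2 fold change was 0.16 (interval -0.39 to 0.71) in PE-/- and 1.29 (SE 0.13, edgeR adjusted p = 0.00773) in PE+/-.

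The remaining named genes that were higher in PE+/- females had overlapping sexes in PE-/-, with means well below those of the PE+/- females. Reln, which encodes the matrix protein reelin, was at 21.4, 51.1, 90.4 and 70.2 CPM in the PE+/- females and at no more than 1.28 CPM in the PE+/- males. It was at 4.51, 3.59 and 2.76 CPM in the PE-/- females and at 3.14, 1.61, 3.09 and 3.59 CPM in the PE-/- males. Both PE-/- sexes were above the PE+/- males and far below the PE+/- females. Cgref1 was at 16.3, 19.0 and 15.4 CPM in the PE-/- females and at 16.1 to 26.6 CPM in the PE-/- males, against PE+/- means of 114 CPM in females and 19.3 CPM in males. Col1a2, a chain of type I collagen, had PE-/- means of 42.9 ± 11.4 CPM (SD, n = 3) in females and 43.1 ± 20.6 CPM (n = 4) in males, with male 4 the highest at 72.3 CPM. Creb3l1, a transcription factor held in the endoplasmic reticulum membrane, had PE-/- means of 4.62 ± 1.84 and 3.74 ± 0.951 CPM. C1qtnf6, a secreted protein of the C1q and TNF family, had 3.89 ± 1.73 and 5.31 ± 1.02 CPM. The long intergenic transcript Gm4319 had 3.85 ± 2.78 and 4.11 ± 1.08 CPM, and the antisense transcript Gm15577 had 2.29 ± 0.415 and 1.93 ± 0.861 CPM. For Gm15577, reads from the gene on the other strand cannot be told apart where counting ignored strand. In PE+/- females the means of these 5 genes were 165, 29.4, 15.3, 17.5 and 91.6 CPM, in the same order.

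**Figure D3:**
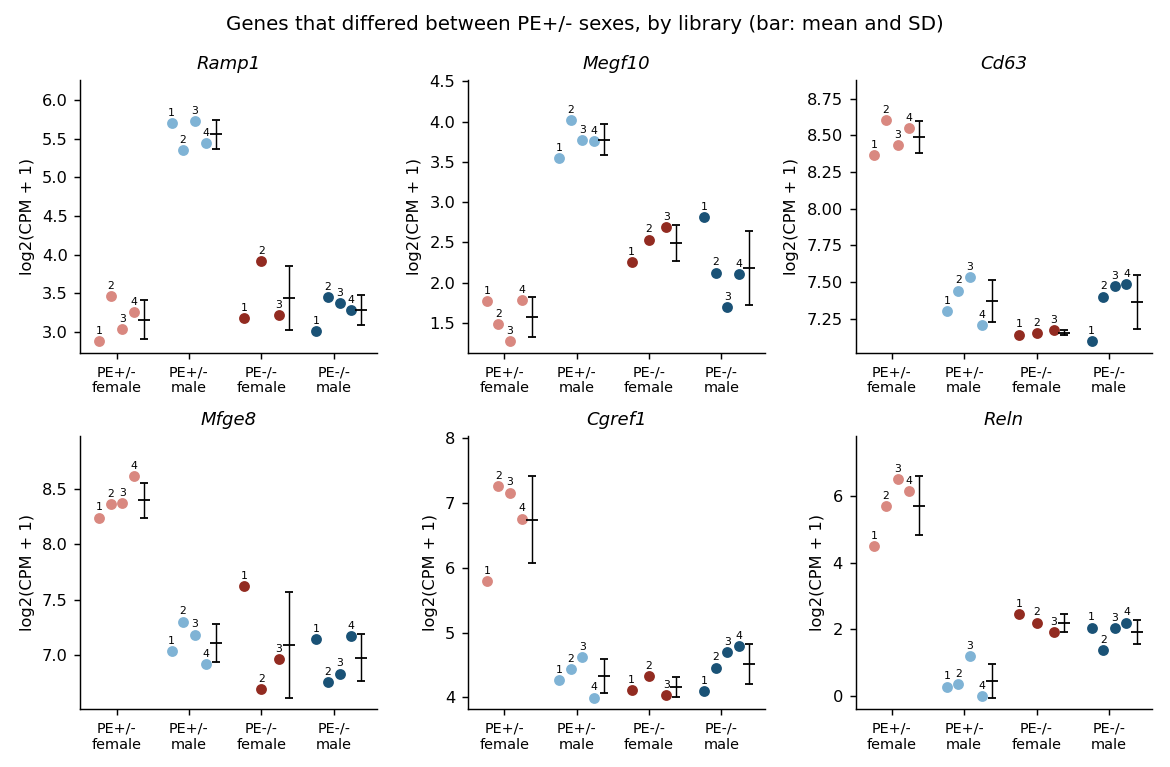
Levels of 6 genes in each of the 15 libraries as log2(CPM + 1), with replicate numbers beside the points and the mean and SD of each group as bars. Ramp1 and Megf10 were higher in PE+/- males, and Cd63, Mfge8, Cgref1 and Reln in PE+/- females; in all 6 the PE-/- sexes overlap.

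The difference between the genotypes was tested directly as the interaction of genotype and sex. Of 18601 autosomal genes tested, 27 passed (0.145%), and 24 of them were among the 100 genes that passed in PE+/-. For 99 of the 100 the interaction was opposite in sign to the PE+/- change, which is how a change that is smaller in PE-/- appears. The PE+/- values that chose these genes are part of the interaction, so this count is not independent of the choice. The smallest adjusted p belonged to Ramp1, with a difference of 2.75 in log2 fold change (SE 0.30, edgeR adjusted p = 0.00518), followed by Gm15577 (-6.21, SE 0.78, adjusted p = 0.00761) and Cd63 (-1.34, SE 0.17, adjusted p = 0.00761). Megf10 (2.99), Cgref1 (-2.95), C1qtnf6 (-3.36) and Reln (-6.67) had edgeR adjusted p of 0.0156, 0.0171, 0.0173 and 0.0212. Of the 12 genes named from PE+/-, 6 did not pass: Creb3l1 (-2.52), Nmnat2 (1.30), Nptx1 (2.25), Mfge8 (-1.13), Col1a2 (-1.62) and Pias3 (2.12), with edgeR adjusted p of 0.0507, 0.0669, 0.111, 0.139, 0.158 and 0.386. Their sex difference was not shown to differ between the genotypes. The count was 375 with DESeq2 and 5 to 66 with 1 library left out, lowest without PE-/- female 3 and highest without PE+/- female 1.

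The 3 genes that passed in PE-/- shared a feature that the test does not use: each had 2 separate levels across the 15 libraries rather than a graded range. A gene was called two-level when neighbouring libraries of at least 1 group were at least 2 apart in log2(CPM + 1). That held for 1450 of the 17568 genes tested in PE-/- (8.25%). All 3 genes that passed there in edgeR were two-level, as were 4 of the 100 that passed in PE+/- and 0 of the 27 of the interaction. Of the 31 genes that DESeq2 called in PE-/-, 13 were two-level and 18 were not. The measure was chosen after the values were seen. It counts gaps within PE+/- groups too, and such gaps widen the spread that the PE+/- and interaction tests use. Two-level genes therefore pass less easily there, and these counts do not compare the contrasts.

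Arfgap3 encodes a protein that switches off ARF GTPases at the Golgi apparatus, on chromosome 15 (83299739 to 83350247, minus strand). It was at 1.24, 2.72 and 4.42 CPM in the PE-/- females and at 88.8, 91.7, 83.6 and 98.2 CPM in the PE-/- males, with no overlap (log2 fold change -5.01, SE 0.43, edgeR adjusted p = 0.0137). Both levels occurred in both PE+/- sexes, at 105, 119, 8.55 and 0.305 CPM in females and 90.5, 119, 114 and 8.41 CPM in males. 1810043G02Rik, on chromosome 10, was at 3.34, 7.36 and 8.36 CPM in the PE-/- females and 69.1, 69.8, 64.7 and 63.6 CPM in the PE-/- males (log2 fold change -3.39, SE 0.32, edgeR adjusted p = 0.0218). The high level was seen in 1 PE+/- female (59.5 CPM), while the other 7 PE+/- libraries were at 3.23 to 7.93 CPM.

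B3gnt2 encodes an enzyme that builds polylactosamine chains on glycoproteins, on chromosome 11 (22759738 to 22860961, minus strand). It was at 62.1, 95.4 and 84.3 CPM in the PE-/- females and at 0.607, 2.07, 0.984 and 1.20 CPM in the PE-/- males (log2 fold change 6.03, SE 0.42, edgeR adjusted p = 0.0073). Gm28048 overlaps it on the same strand (22834744 to 22982090) and belongs to the same assembled locus of 4 genes. It ran the other way, at 0, 0.866 and 0 CPM in the PE-/- females and 92.3, 114, 117 and 106 CPM in the PE-/- males, and did not pass (edgeR adjusted p = 0.21). Summed over the locus, the log2 fold change was -0.08 (edgeR adjusted p = 0.997). The assignment of counts between these overlapping genes is uncertain, and the B3gnt2 value applies to its row and not to the locus.

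**Figure D4:**
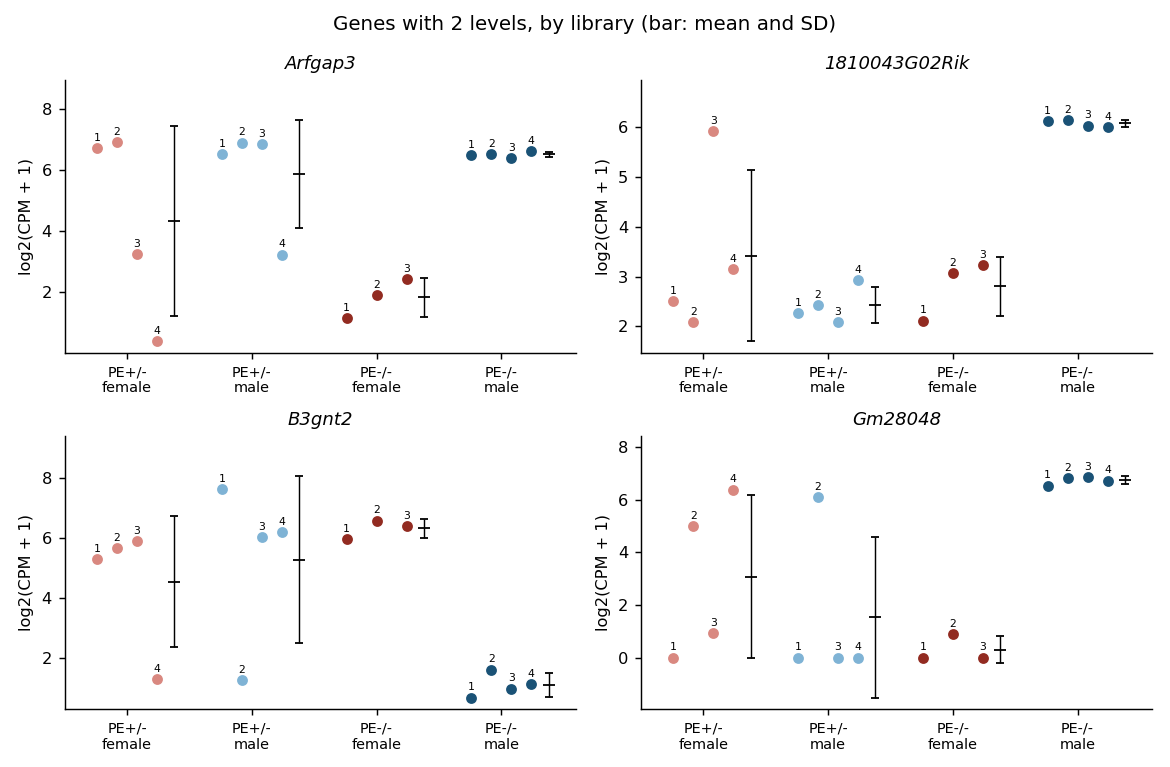
Levels of Arfgap3, 1810043G02Rik, B3gnt2 and Gm28048 in each library as log2(CPM + 1), with replicate numbers beside the points and the mean and SD as bars. Among PE-/- libraries the high and low levels fall to different sexes, a condition by which the genes were chosen. In PE+/- mice, where no such condition was set, they are mixed within at least 1 sex for all 4 genes.

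B3gnt2 passed in 7 of 7 fits that left out 1 PE-/- library, Arfgap3 in 4 and 1810043G02Rik in 2. Another 50 genes passed in 1 of the 7 fits each, and of all 53 genes 46 were two-level. Where the library left out is the one across the gap, leaving it out removes the gap. The count of two-level genes thus follows in part from the measure. With two-level genes left out before the fit, 2 genes passed, Lamtor1 and Pgap2. Both are among the named genes below that did not pass in the full table.

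The named genes next in order of p did not pass in edgeR, and their values are given as such. They were chosen among genes whose PE-/- sexes do not overlap, a condition that was not put on PE+/-. Lamtor1, a subunit of the Ragulator complex that anchors mTORC1 to lysosomes, was at 46.0, 46.3 and 41.6 CPM in the PE-/- females and at 89.4, 124, 117 and 101 CPM in the PE-/- males (log2 fold change -1.27, SE 0.15, edgeR adjusted p = 0.0835). Of the PE+/- males, 2 of 4 were at the low level (44.2 and 51.1 CPM) and the other 6 PE+/- libraries at 92.4 to 116 CPM. Pgap2, which remodels GPI anchors, was at 49.4, 64.5 and 71.5 CPM in females and 16.4, 25.6, 21.9 and 17.1 CPM in males (log2 fold change 1.61, edgeR adjusted p = 0.134). Nedd4l, a ubiquitin ligase, was at 45.8, 45.5 and 46.8 CPM in females and 15.2, 23.6, 14.4 and 13.3 CPM in males (log2 fold change 1.47, edgeR adjusted p = 0.218). For Pgap2, 1 library of each PE+/- sex was at a low level (21.7 and 16.2 CPM), with the other 6 at 54.4 to 71.5 CPM. For Nedd4l the PE+/- libraries were spread from 12.1 to 50.6 CPM.

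Pttg1, the securin that holds sister chromatids together, was at 10.6, 13.9 and 12.2 CPM in the PE-/- females and at 3.69, 4.48, 4.73 and 5.24 CPM in the PE-/- males (log2 fold change 1.44, SE 0.18, edgeR adjusted p = 0.117). Its PE-/- sexes did not overlap, as the choice of genes required. In PE+/- mice 1 female was at 10.8 CPM and the other 7 libraries at 2.89 to 4.79 CPM. Prkab2, a regulatory subunit of AMP-activated protein kinase, was at 11.5, 11.9 and 11.5 CPM in females and 19.1, 17.4, 17.3 and 18.8 CPM in males (log2 fold change -0.64, edgeR adjusted p = 0.631).

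Hspa1b, an inducible heat shock protein of the HSP70 family, was another gene chosen with no overlap, with the higher levels in the PE-/- females. It was at 23.3, 24.2 and 40.5 CPM in females and at 11.2, 7.81, 7.08 and 7.11 CPM in males (log2 fold change 1.82, SE 0.26, edgeR adjusted p = 0.218). Its neighbour Hspa1a, named because it is a near copy, was at 74.6, 76.5 and 145 CPM in females and 37.2, 29.3, 24.5 and 24.9 CPM in males (log2 fold change 1.77, SE 0.28, edgeR adjusted p = 0.327). Neither passed in edgeR, both passed in DESeq2, and in PE+/- mice the log2 fold changes were -0.44 and 0.00. Among 4 other chaperone genes, chosen after values were seen, the PE-/- log2 fold change was 0.33 for Hsph1, 0.53 for Hsp90aa1, 0.55 for Dnajb1 and 0.56 for Hspa8. None of the 4 passed in edgeR, with unadjusted p of 0.549, 0.0362, 0.0429 and 0.0516. The sequences of the Hspa1 promoters are shown because these neighbouring genes had like differences and their reads can be shared. Each runs from 250 bases before to 50 bases after the start of the gene on the minus strand of chromosome 17 (RefSeq, GRCm38.p6), with matches to the heat shock motif GAANNTTC in capitals, a motif that reads the same on both strands. Hspa1a lies at chr17:34972107-34972406 and Hspa1b at chr17:34959189-34959488.
Hspa1a: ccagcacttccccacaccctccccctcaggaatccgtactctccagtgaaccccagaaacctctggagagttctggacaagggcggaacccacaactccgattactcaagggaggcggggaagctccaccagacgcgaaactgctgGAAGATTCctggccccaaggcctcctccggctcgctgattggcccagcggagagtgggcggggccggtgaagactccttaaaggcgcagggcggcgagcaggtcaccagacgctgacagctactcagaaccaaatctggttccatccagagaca
Hspa1b: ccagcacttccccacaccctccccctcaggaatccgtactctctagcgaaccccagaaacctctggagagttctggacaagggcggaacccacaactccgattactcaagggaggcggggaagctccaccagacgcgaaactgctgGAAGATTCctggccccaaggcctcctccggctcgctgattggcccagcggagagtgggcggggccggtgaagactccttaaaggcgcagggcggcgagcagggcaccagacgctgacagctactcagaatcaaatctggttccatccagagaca
The promoters differ at 4 of 300 bases, and each holds 1 match to the motif, which 7.86% of 32851 promoters of this length hold. Of the 150-base windows of the Hspa1a transcript, 38.1% occur unchanged in the Hspa1b transcript, so reads there cannot be assigned to either gene.

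The hormone subunit genes of gonadotropes overlapped between the PE-/- sexes. Lhb, the luteinizing hormone subunit, was at 11.4, 23.2 and 13.9 CPM in the PE-/- females and at 15.2, 17.2, 16.6 and 3.13 CPM in the PE-/- males, with male 4 the lowest of all. The log2 fold change was 0.31 (interval -0.97 to 1.59), and -0.01 without male 4. In PE+/- mice Lhb was at 172 to 246 CPM in females and 309.6 to 577 CPM in males, with no overlap (log2 fold change -1.05, edgeR adjusted p = 0.088). Fshb, the follicle-stimulating hormone subunit, was at 40.3, 81.8 and 70.7 CPM in the PE-/- females and 80.8, 72.1, 128 and 9.11 CPM in the PE-/- males. Its log2 fold change was -0.17 (interval -1.86 to 1.51), beside -2.06 (edgeR adjusted p = 0.238) in PE+/-, where 3 females were at 163 to 359 CPM, the fourth at 1754 CPM and the males at 2201 to 3260 CPM. Neither hormone subunit passed in either genotype with edgeR, and both passed in PE+/- with DESeq2.

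Grem1, an inhibitor of bone morphogenetic proteins, was at 16.0 to 40.0 CPM in the PE+/- males and at no more than 2.05 CPM in the PE+/- females (log2 fold change -4.37, edgeR adjusted p = 0.0503). In the PE-/- mice it was at 1.67, 1.24 and 1.40 CPM in females and 2.58, 0.957, 1.97 and 0.285 CPM in males (log2 fold change -0.02, interval -1.52 to 1.49). The PE-/- males were at the level of females of both genotypes. Gnrhr, the GnRH receptor, was at 5.37, 9.68 and 5.56 CPM in the PE-/- females and 8.14, 5.28, 6.61 and 1.88 CPM in the PE-/- males. Tgfbr3l, the inhibin B co-receptor of gonadotropes, was at 3.16 to 3.34 and 2.63 to 3.91 CPM, a log2 fold change of 0.00 (interval -0.48 to 0.49). Spp1, which encodes osteopontin, was at 9.77 to 14.3 CPM in females and 7.35 to 23.0 CPM in males, with males 3 and 4 high (log2 fold change -0.29). For Nr5a1 a log2 fold change of 1.08 was fitted (edgeR adjusted p = 0.997) between PE-/- libraries of no more than 0.897 CPM.

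Prl, the prolactin gene, had the lowest unadjusted p of the fixed genes in PE-/-. It was at 5189, 4459 and 5603 CPM in the PE-/- females and at 16602, 4753, 8051 and 41223 CPM in the PE-/- males, with male 2 inside the female range and male 4 the highest library of the series. The log2 fold change was -1.79 (SE 0.70, unadjusted p = 0.0366, edgeR adjusted p = 0.997), and -0.95 without male 4. Prl in PE+/- mice was at 21965 to 35112 CPM in females and 12285 to 31182 CPM in males (log2 fold change 0.60, edgeR adjusted p = 0.45). The interaction of -2.40 did not pass (edgeR adjusted p = 0.274). Gh, the growth hormone gene, was at 174462, 86284 and 104447 CPM in the PE-/- females and at 129549, 105895, 65618 and 126300 CPM in the PE-/- males (log2 fold change 0.19, interval -0.54 to 0.92). In PE+/- mice its sexes did not overlap, at 59319 to 104799 CPM in females and 134149 to 186860 CPM in males (log2 fold change -1.04, edgeR adjusted p = 0.101, and past the threshold in DESeq2).

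The other hormone genes spread most among the PE-/- males. Pomc was at 47433, 51680 and 45768 CPM in the PE-/- females and at 4644, 42119, 115020 and 71552 CPM in the PE-/- males, a log2 fold change of -0.27 (interval -2.19 to 1.64) that was 0.29 without male 3. Pcsk2, a protease of melanotropes, was at 506 CPM in male 1, the library low in Pomc, and at 331 to 695 CPM in the other males. Tshb, the thyrotropin subunit, was at 256, 273 and 300 CPM in females and 170, 295, 273 and 42.4 CPM in males, with male 4 the lowest. Cga, the subunit that these glycoprotein hormones share, was at 2208, 6832 and 5874 CPM in females and 6439, 6723, 6376 and 1346 CPM in males.

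**Figure D5:**
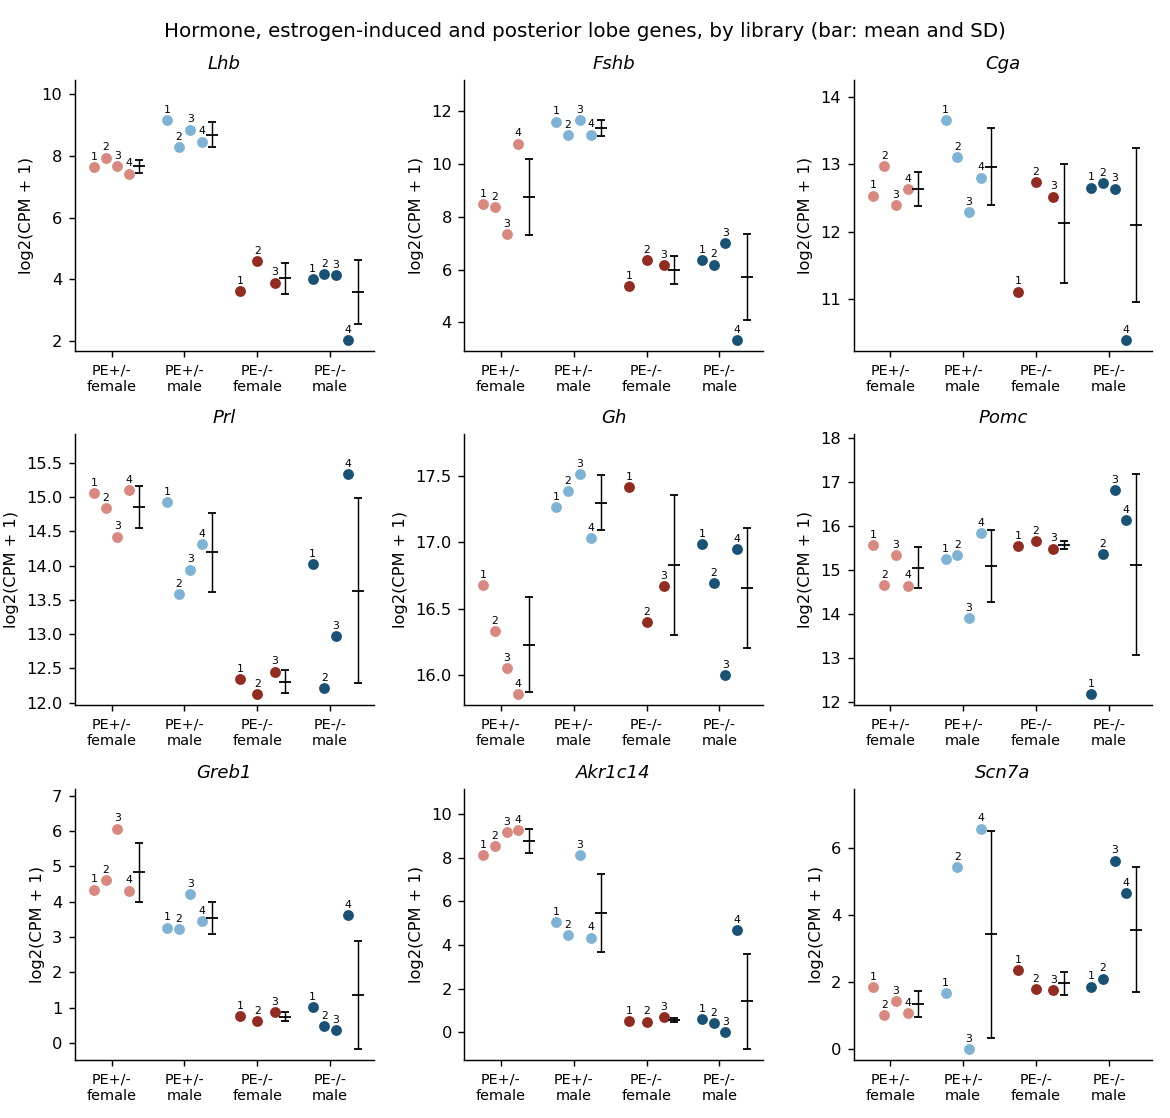
Levels of 9 genes in each library as log2(CPM + 1), with replicate numbers beside the points and the mean and SD of each group as bars. PE-/- male 4 is the lowest PE-/- library in Lhb, Fshb and Cga and the highest in Prl, Greb1 and Akr1c14; males 3 and 4 are high in Scn7a.

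A list of genes known to respond to estrogen leaned towards females in PE+/- mice and towards neither sex in PE-/-. The 12 genes of the estrogen-induced list had a median log2 fold change of 1.25 in PE+/-, where 0 passed in edgeR and 6 had an unadjusted p under 0.05, all higher in females, beside 13.3% of all autosomal genes in either direction and 7.15% higher in females. The list was chosen with earlier results of these data known, so its lean in PE+/- is not independent of the choice. In PE-/- the median of the 10 tested was -0.01, and 0 passed in edgeR, with Prl at an unadjusted p under 0.05. Over all autosomal genes the median was -0.01 in PE+/- and 0.00 in PE-/-. Pgr, the progesterone receptor, was at 20.7 to 61.7 CPM in the PE+/- females and at 8.34, 10.9 and 11.8 CPM in the PE-/- females. The PE-/- males were at 11.2, 11.5, 8.95 and 13.3 CPM, so the PE-/- sexes overlapped (log2 fold change -0.12, interval -0.57 to 0.33). Rxfp1, the relaxin receptor, was at 19.1 to 42.4 CPM in the PE+/- females and at 0 counts in all 7 PE-/- libraries. Esr1, the estrogen receptor, was at 304 to 408 CPM in the PE-/- females and 222 to 387 CPM in the PE-/- males (log2 fold change 0.10, interval -0.38 to 0.59).

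Greb1, Gal and Akr1c14 were low in 6 of the 7 PE-/- libraries and higher in male 4. Greb1, a cofactor of the estrogen receptor, was at 0.679, 0.526 and 0.832 CPM in the PE-/- females and at 1.01, 0.383, 0.281 and 11.2 CPM in the PE-/- males. Its log2 fold change was -2.23 (SE 1.34), and 0.29 without male 4. Gal, the gene of the neuropeptide galanin, was at 0.927, 1.98 and 2.41 CPM in females and 2.23, 1.68, 3.00 and 12.9 CPM in males, against 87.4, 759, 746 and 731 CPM in the PE+/- females. Akr1c14, an enzyme that reduces steroids, was at 0.402 to 0.613 CPM in females and at 0.506, 0.345, 0 and 24.5 CPM in males. None of the 3 passed in edgeR, with unadjusted p of 0.139, 0.105 and 0.106. The log2 fold change of Gal was -1.46, and -0.36 without male 4. That of Akr1c14 was -3.68, and 0.19 without males 3 and 4; without male 4 alone the gene did not pass the filter on low counts. The same male 4 was also the highest library in Prl.

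The remaining fixed genes did not pass in PE-/-. Fkbp5, induced by androgens and glucocorticoids, was at 56.3, 36.0 and 37.3 CPM in the PE-/- females and 34.4, 35.2, 36.5 and 47.5 CPM in the PE-/- males (log2 fold change 0.17, interval -0.31 to 0.65). In PE+/- mice its sexes did not overlap, at 22.9 to 33.0 CPM in females and 41.8 to 89.5 CPM in males. Drd2, the dopamine receptor, was at 31.0 to 33.1 CPM in the PE-/- females and 22.6 to 44.1 CPM in the PE-/- males. Ghrhr, the receptor for growth hormone-releasing hormone, was at 77.5 to 116 CPM in females and 28.4 to 113 CPM in males. Fst, which encodes the activin-binding follistatin, was at no more than 5 counts in any PE-/- library and was not tested.

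Gene lists for pituitary cell types and pathways were described by their counts. They were chosen with earlier results of these data known, so their shares are not independent of that choice. The 25 lists held 297 autosomal genes, of which 253 were tested in PE-/-. In edgeR 0 passed there (0.0171% of all autosomal genes), and 16 (6.32%) had an unadjusted p under 0.05, 9 higher in females and 7 in males, beside 3.33% of all autosomal genes. In PE+/- 255 were tested, 2 passed (Crhbp and Col1a2) and 58 (22.7%) had an unadjusted p under 0.05, beside 13.3% of all autosomal genes. The median absolute log2 fold change of the list genes was 0.230 in PE-/- and 0.439 in PE+/-, beside 0.186 and 0.274 over all autosomal genes tested.

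In most lists of hormone cells the PE-/- median lay near 0. It was -0.02 for 13 gonadotrope genes (-0.73 for 14 in PE+/-), 0.02 for 9 lactotrope genes (0.29 for 10), 0.20 for 10 somatotrope genes (-0.52 for 10), -0.03 for 8 thyrotrope genes (-0.40 for 7) and 0.01 for 7 corticotrope genes (-0.19 for 8). For 7 melanotrope genes it was -0.27 (-0.12 in PE+/-). In the gonadotrope list Foxl2, a transcription factor of gonadotropes, had an unadjusted p of 0.0439, at 7.47, 6.13 and 6.57 CPM in the PE-/- females and 5.46, 4.56, 3.19 and 1.93 CPM in the PE-/- males. The sexes did not overlap, and the log2 fold change of 0.82 did not pass (edgeR adjusted p = 0.997). Males 3 and 4 were the lowest libraries. Without male 4 the log2 fold change of Foxl2 was 0.61, and without males 3 and 4 it was 0.42 (edgeR unadjusted p = 0.0482 and 0.101). In the lactotrope list Prlr, the prolactin receptor, was at 53.4, 15.8 and 68.7 CPM in females and 14.6 to 23.7 CPM in males, with a log2 fold change of 1.21 in PE-/- beside 1.11 in PE+/- (unadjusted p = 0.0294 and 0.0237, edgeR adjusted p = 0.997 and 0.277). Female 2 lay inside the male range.

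The list of androgen- or glucocorticoid-induced genes had opposite medians in the genotypes, 0.29 for 9 genes in PE-/- and -0.28 for 9 in PE+/-. Its summed level was 411 to 502 CPM in the PE-/- females and 336 to 379 CPM in the PE-/- males, with no overlap. Of the 25 lists, no other had summed levels without overlap in PE-/-. That share is no larger than the 5.16% of all autosomal genes tested whose sexes did not overlap. A sum over a list follows its most abundant members and is not on the scale of single genes. In edgeR 0 members of the androgen- or glucocorticoid-induced list passed in PE-/-, and 0 had an unadjusted p under 0.05. Among other lists of signalling the PE-/- median was 0.04 for 11 genes of steroid metabolism, 0.08 for 25 steroid and nuclear hormone receptors, 0.00 for 21 genes of activin, inhibin and bone morphogenetic protein signalling, -0.02 for 20 genes of GnRH signalling and -0.02 for 18 receptors for hypothalamic hormones. In PE+/- the last 3 had medians of -0.24, -0.50 and -0.37, with 6 of 21, 4 of 20 and 8 of 19 members at an unadjusted p under 0.05, beside 13.3% of all autosomal genes. Among 22 cell cycle genes, 21 were tested with a median of -0.09 in PE-/- and 0.64 in PE+/-, and 1 had an unadjusted p under 0.05 in PE-/- (Mcm5, a helicase subunit of DNA replication, log2 fold change -0.69). The 18 immediate early genes had a median of -0.13, the 18 genes of endoplasmic reticulum folding -0.01 and the 7 tested local neuropeptides -0.04.

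The list of secretory granule and processing genes had the most members at an unadjusted p under 0.05, 3 of 11, all higher in females, beside 3.33% of all autosomal genes in either direction and 1.62% higher in females. Scg3, a granin that gathers cargo in secretory granules, was at 355, 291 and 295 CPM in the PE-/- females and at 166, 217, 112 and 203 CPM in the PE-/- males, with no overlap (log2 fold change 0.85, SE 0.23, unadjusted p = 0.00661, edgeR adjusted p = 0.997). The PE+/- value was -0.06. Chga, which encodes chromogranin A, was at 1940, 1756 and 1948 CPM in females and 1789, 1491, 1472 and 1369 CPM in males (log2 fold change 0.30), with female 2 below male 1. Vgf, a precursor of secreted peptides, had a log2 fold change of 0.96 at levels of 0.996 to 4.95 CPM. The median of the list was 0.22.

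Genes of the posterior lobe and of glia had high levels in PE-/- males 3 and 4. Col25a1, a collagen of the list for the posterior lobe, was at 0.988, 2.44 and 0.394 CPM in the PE-/- females and at 0.607, 1.23, 38.5 and 22.0 CPM in the PE-/- males (log2 fold change -3.56, unadjusted p = 0.0485). Gfap, the filament protein of astrocytes and pituicytes, was at 0.865, 1.64 and 0.920 CPM in females and 1.97, 1.42, 26.1 and 12.1 CPM in males (log2 fold change -3.16, unadjusted p = 0.0221). Neither passed (edgeR adjusted p = 0.997), and without males 3 and 4 the log2 fold changes were 0.49 for Col25a1 and -0.55 for Gfap. Of the 9 posterior lobe genes 4 were tested in PE-/-, with a median log2 fold change of -1.71 and 2 at an unadjusted p under 0.05 (Col25a1 and Scn7a, the latter -2.73, and 0.00 without males 3 and 4). The median in PE+/- was -1.24 over 4 genes. The summed level of the 9 posterior lobe genes was 34.5 to 41.1 CPM in the PE-/- females and 37.9 to 195 CPM in the PE-/- males, and the defining genes Rax, Nkx2-1, Lhx2, Avp and Oxt were at the floor in the females. PE+/- males 2 and 4 were high in the same genes, with Scn7a at 42.2 and 95.2 CPM against 0 to 2.58 CPM in the other PE+/- libraries. How much of the posterior lobe was in each sample was not tested. The lists for endothelial cells, pericytes or fibroblasts, and stem or folliculostellate cells had PE-/- medians of 0.29, 0.14 and 0.03, and those for immune cells, erythroid cells and neural tissue -0.19, 0.23 and -0.33. These lists had 9, 9, 9, 9, 5 and 4 genes tested in PE-/-, in the order named. In edgeR 0 of their members passed, and 4 had an unadjusted p under 0.05, beside 3.33% of all autosomal genes. The 4 were Aldh1a2, Aqp4 and Mrc1, with higher means in females, and Gfap.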

How the data were processed

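RNA of whole pituitary glands was sequenced from PE-/- females (n = 3), PE-/- males (n = 4) and PE+/- females and males (n = 4 each). Per the study's methods, reads were trimmed with cutadapt, aligned to mm10 with STAR and counted with featureCounts. The authors deposited 1 table of whole-number estimated counts for 55523 rows, named by assembled loci, an assembly step not given in the sources used here. The counts came in steps of about 4 a fragment, so 12 counts were the floor. All 55523 rows matched GENCODE M21 by symbol or identifier. There are 1053 loci with more than 1 row.

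The estimated counts were analysed as deposited in edgeR 4.0.16 (R 4.3.3): filterByExpr with a minimum count of 10 and a total of at least 15 chose the genes, which were scaled by TMM and tested with the quasi-likelihood test in each genotype, with the interaction of genotype and sex fitted over all 15 libraries. P-values were two-sided and adjusted by Benjamini-Hochberg over all genes tested, sex chromosomes included, with a threshold of 0.05; only autosomal genes are reported. CPM used TMM over all 15 libraries. DESeq2 1.42.0, other scalings and filters, a replicate block and leaving out each library were the alternatives. The two-level measure, its removal and the removal of males 3 and 4 were chosen after seeing the data. Scripts were tested on simulated data.

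Members, lists and tests were chosen with earlier results of these data known. Named genes were those past the threshold in PE-/- (or the 5 of smallest p in a direction where fewer than 5 passed) and up to 6 in each direction in PE+/-. Both of these sets needed groups that do not overlap and a mean of at least 20 counts. Up to 8 genes of the interaction needed the mean count alone. Genes past the threshold in both genotypes (none) and 23 fixed genes were named under neither condition. The sources do not say that replicates came from separate animals, so p-values measure the spread between these samples, which may be technical. A fitted fold change of a gene at the floor in a group depends on the prior count and is no bound. Intervals cover the spread in these libraries alone.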

Additional observations from a re-analysis of the deposited data

Results flagged for a closer look

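Among groups of 4 libraries, 122 were tested for a library far from the other 3 (Dixon's test, critical value 0.829), and 16 had one. The critical value gives about 1 in 20 by chance for normally distributed values. These were CPM of genes chosen with earlier results known, so that rate is no measure of chance here. Of the 16, 8 were among PE-/- males, and 6 of these were replicate 4. That library was low in Lhb (3.13 CPM) and Cga (1346 CPM) and high in Greb1 (11.2 CPM), Gal (12.9 CPM), Akr1c14 (24.5 CPM) and Fkbp5 (47.5 CPM). PE-/- male 2 was high in Pias3 (37.6 CPM) and Gm15577 (3.22 CPM). Among PE+/- males, replicate 3 was high in Tgfbr3l (298 CPM), Greb1 (17.5 CPM) and Akr1c14 (280 CPM). Among PE+/- females, replicate 4 was high in Fshb (1754 CPM), Gm4319 (27.4 CPM) and Fst (0.244 CPM, under the floor), replicate 3 in Greb1 (65.8 CPM), and replicate 1 was low in Gal (87.4 CPM). What set these libraries apart was not tested.

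The female to male change differed between PE-/- and PE+/- in the interaction test of edgeR for these named genes, given as PE-/- minus PE+/- on the log2 scale. It was above 0 for Ramp1 (2.75), Megf10 (2.99) and 1500009L16Rik (2.08), which were higher in PE+/- males, with edgeR adjusted p of 0.00518, 0.0156 and 0.0376. It was below 0 for Cd63 (-1.34), Cgref1 (-2.95), Gm4319 (-3.57), C1qtnf6 (-3.36), Gm15577 (-6.21) and Reln (-6.67), which were higher in PE+/- females, with edgeR adjusted p of 0.00761, 0.0171, 0.0347, 0.0173, 0.00761 and 0.0212. For Crhbp the fitted difference was -16.8 (edgeR adjusted p = 0.0184), a value set by the prior count, since the gene was at the floor in 3 of the 4 groups.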

How the results depend on the processing

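The count of genes past the threshold in PE-/- was 3; it was 31 with DESeq2, 0 in one fit of all 15 libraries, 0 with a replicate block, 10 without males 3 and 4, and 3 to 20 with 1 library left out. In PE+/- it was 100; it was 852 with DESeq2, 392 in one fit of all 15 libraries, 55 with no filter on low counts, 183 without two-level genes, 0 with a replicate block and 24 to 98 with 1 library left out, with 48 or fewer without any library other than female 1. For the interaction it was 27; it was 375 with DESeq2, 41 without genes listed at 0 in 1 library and at 20 counts or more in another of the same group, 63 without two-level genes, 8 with a replicate block and 5 to 66 with 1 library left out. Of the genes past the threshold in PE+/-, 0 passed in PE-/- with edgeR or DESeq2, and 1 did at an unadjusted p under 0.05. Over all autosomal genes tested in PE-/- with edgeR, the shares were 0.0171% and 3.33%. The cause was not tested.

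In their deviations from the group means, same-numbered females and males correlated at 0.0218, 0.108 and -0.0302 in PE-/- and at -0.0861 to -0.00958 in PE+/-. Differently numbered libraries were not compared, so whether the replicate numbers pair the samples was not tested. With the replicate block the PE-/- log2 fold change changed sign for Lhb (-0.0793), Spp1 (0.071), Pomc (0.67), Greb1 (0.44), Akr1c14 (0.93), Drd2 (0.17), Col1a2 (0.36), Nptx1 (0.0498) and Pias3 (-0.16).

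No gene that changed sign had passed the threshold in PE-/-, except B3gnt2 summed per locus (-0.0794). Tgfbr3l, near 0, was -0.0137 with library totals and -0.0876 (PE-/-) and -0.0686 (PE+/-) summed per locus, and Col1a2 was 0.000109 with no filter. Without males 3 and 4, the PE-/- value was 0.55 for Spp1, -0.0134 for Tgfbr3l, 1.05 for Pomc, 0.19 for Akr1c14, 0.48 for Drd2, -0.27 for Ghrhr, 0.25 for Col1a2, -0.0741 for Gm15577, 0.19 for 1500009L16Rik and -0.33 for Pias3. With 1 library left out, PE-/- ranges that crossed 0 were -0.19 to 0.18 for 1500009L16Rik, -0.39 to 0.29 for Cga, -0.24 to 0.36 for Col1a2, -0.16 to 0.17 for Drd2, -0.0407 to 0.20 for Esr1, -0.0627 to 0.29 for Fkbp5, -0.54 to 0.25 for Fshb, -0.16 to 0.39 for Gh, -0.0688 to 0.42 for Ghrhr, -0.87 to 0.22 for Gm4319, -0.0046 to 0.58 for Gnrhr, -2.61 to 0.29 for Greb1, -0.35 to 0.41 for Grem1, -0.0461 to 0.51 for Lhb, -0.15 to 0.34 for Mfge8, -0.36 to 0.31 for Nptx1, -0.22 to 0.015 for Pgr, -1.03 to 0.99 for Pias3, -0.66 to 0.29 for Pomc, -0.0991 to 0.36 for Ramp1 and -0.083 to 0.11 for Tgfbr3l. In PE+/- they were -0.00475 to 0.36 for Drd2, -0.24 to 0.0825 for Esr1, -0.38 to 0.15 for Pomc and -0.52 to 0.0423 for Tshb. Of single-gene values, 1794 kept their direction and side of the threshold, 99 lost the call, 55 gained one and 72 changed sign.

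The 95% interval of the log2 fold change reached a median of 0.608 to each side in PE-/-. Genes with wider intervals could hold differences that these libraries do not show.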
